A study of Mus musculus with 20 samples.

Results

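The 10 genes described here hold back or drive entry into the cell cycle. They are 5 inhibitors of cyclin-dependent kinases (Cdkn1a, Cdkn1b, Cdkn1c, Cdkn2c and Cdkn2d), the 3 D-type cyclins (Ccnd1, Ccnd2 and Ccnd3) and the 2 kinases that D cyclins activate (Cdk4 and Cdk6). They were chosen by symbol, and all 10 were found once among the 49568 symbols counted. RNA was sequenced from 2 populations sorted from mouse marrow: LT-HSC, the long-term stem cells of blood, and MPP, their multipotent progeny. The animals were C57BL/6 (wild type, WT) or AHR KO, which lack the aryl hydrocarbon receptor according to the labels and are called Ahr-KO here; all were untreated and 8 to 12 weeks old. Each of the 4 groups (WT LT-HSC, Ahr-KO LT-HSC, WT MPP and Ahr-KO MPP) held 5 libraries, 20 in all, and the series was designed to find AHR targets bearing on stem cell function and proliferation.

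A quiescent stem cell leaves G1 when D cyclins accumulate in response to growth signals, bind Cdk4 or Cdk6, and phosphorylate the retinoblastoma family of pocket proteins, which releases E2F transcription factors. The Ink4 inhibitors, here Cdkn2c (p18) and Cdkn2d (p19), bind Cdk4 and Cdk6 themselves. The Cip/Kip inhibitors Cdkn1a (p21), Cdkn1b (p27) and Cdkn1c (p57) bind cyclin-kinase complexes, and p57 is known for its high level in dormant stem cells of the marrow. AHR is a ligand-activated transcription factor, and Cdkn1b and Cdkn1a have been named among the genes it can act on in other cell types.

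Library totals ran from 13712668 to 21622653 counts. Levels are given as CPM, counts scaled to the same TMM-adjusted total in each library, and differences as log2 fold changes with their standard error from edgeR's quasi-likelihood test; a gene was called at a Benjamini-Hochberg adjusted p under 0.05 over all genes tested. All 10 members passed the filter on low counts in every comparison. A set of 12 LT-HSC markers summed to 1835 to 2361 CPM in LT-HSC libraries and 520 to 935 CPM in MPP libraries, and a set of 10 MPP markers to 524 to 2388 and 5837 to 11567 CPM, as the labels have it. The labels do not name the knockout allele, and Ahr counts overlapped between genotypes (mean CPM of 26.5 for WT and 23.6 for Ahr-KO in LT-HSC, and of 9.81 and 15.9 in MPP), so they do not check the genotype. Nothing in the labels says whether libraries of a group came from separate animals, so p-values measure the spread between these libraries. In bulk RNA, fewer cells that express a gene and less RNA per cell cannot be told apart.

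Some libraries stood apart. In WT LT-HSC 1, 9 of the 10 members lay outside the range of the other 4 WT LT-HSC libraries, 6 above and 3 below. Over all genes at 5 CPM or more, its median ratio to the mean of those 4 was 1.29 for the 2322 genes with under 2000 bp of merged exons and 0.527 for the 1919 genes with 8000 bp or more. Among the members, Cdkn2d (1574 bp) and Cdkn1c (2039 bp) were 1.75 and 1.98 times the mean of the other libraries, while Cdk6 (13989 bp), the longest, stood at 0.482 of it. Cdkn1b (4552 bp) stood lower still, at 0.243, and Ccnd2 and Ccnd3 did not follow their length. Ahr-KO LT-HSC 2 and 3 held 1005 and 1516 CPM of 10 neutrophil marker genes against 7.09 to 96.4 CPM across the remaining 8 libraries of LT-HSC, and Ahr-KO LT-HSC 3 also held 4257 CPM of 7 connective tissue markers. None of either list was at 0 in every library. Ahr-KO LT-HSC 2 and 3 were also the highest LT-HSC libraries for the MPP markers, at 2388 and 2238 CPM against 524 to 1449 CPM. The same held for monocyte and macrophage markers (518 and 533 against 35.9 to 113 CPM) and erythroid markers (2486 and 2951 against 130 to 1840 CPM). Where leaving these libraries out changed a call, both values are given, and some of the larger moves in a value are given too.

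**Figure D1:**
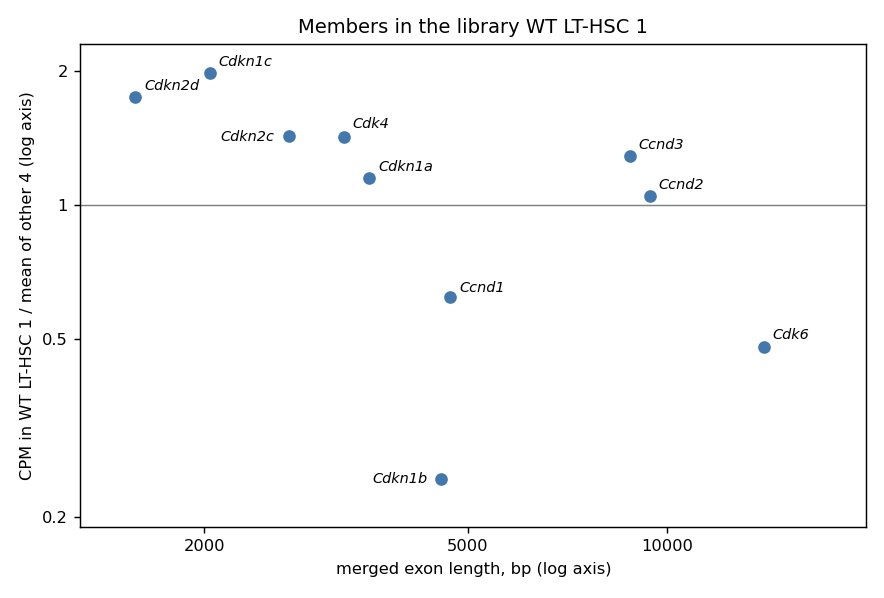
Ratio of each member's CPM in WT LT-HSC 1 to its mean in the other 4 WT LT-HSC libraries (vertical log axis) against merged exon length in bp (horizontal log axis), 1 point per gene. Cdkn1c lies highest at 1.98 and Cdkn1b lowest at 0.243.

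Per length, Cdk4 was the most abundant member in every group. Its level per length (TPM, counts per kb of merged exon scaled to the same total in each library) averaged 366 ± 36.8 (SD, n = 5) in WT LT-HSC and 333 ± 18.0 in Ahr-KO LT-HSC, with means of 406 ± 34.5 and 422 ± 26.5 in the MPP of these genotypes, and no other member's range reached it in any group. In WT LT-HSC it was followed by Ccnd2 (150 TPM), Cdkn2d (111), Ccnd3 (86.0), Cdkn1c (47.4), Cdkn2c (25.7), Cdk6 (25.0), Ccnd1 (7.32), Cdkn1b (2.46) and Cdkn1a (2.12). Neighbours in that order overlapped in range for Ccnd2 and Cdkn2d, for Cdkn2c and Cdk6, and for Cdkn1b and Cdkn1a. In Ahr-KO LT-HSC Ccnd3 (95.2 TPM) and Cdkn2d (90.0) changed places, as did Cdk6 and Cdkn2c, and Cdkn1a (3.22) and Cdkn1b (2.67), each pair with overlapping ranges. In MPP the order below Cdk4 was Cdkn2d, Ccnd2, Ccnd3, Cdk6, Cdkn2c and Cdkn1a in both genotypes. Ranges overlapped there for Cdkn2d and Ccnd2 and for Ccnd2 and Ccnd3 in both genotypes, and for Ccnd3 and Cdk6 in WT. The order depends on the length used: per kb of the longest transcript Cdk4 again came first in every group, but in MPP of both genotypes it was followed by Ccnd3, Ccnd2 and Cdkn2d, and Ccnd3 came before Cdkn2d in WT LT-HSC too. Cdkn1c, which ranked above Cdkn2c in LT-HSC, was among the lowest 3 in MPP, at 4.07 TPM in WT and 3.86 TPM in Ahr-KO, with ranges that overlapped those of Ccnd1 and Cdkn1b.

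MPP and LT-HSC differed in most of these genes. In WT, 6 of 10 members were called between MPP and LT-HSC, against a background of 22.3% of the 17416 genes tested. Cdkn1a, Cdkn2c, Cdk4 and Cdk6 were higher in MPP, and Cdkn1c and Ccnd2 were lower. In Ahr-KO, 7 of 10 were called (background 23.2%), with Cdkn1a, Cdk4 and Cdk6 higher and Cdkn1c, Ccnd1, Ccnd2 and Ccnd3 lower. Libraries of MPP and LT-HSC did not overlap for 4 members in WT (background 16.4%) and 5 in Ahr-KO (background 21.6%). The 2 contrasts use separate libraries within 1 fit, and 5 members (Cdkn1a, Cdkn1c, Ccnd2, Cdk4 and Cdk6) were called in both in the same direction, as were 14.6% of all genes. No member's genotype effect was called as different between the populations: edgeR called 0 of 17416 genes in that interaction (0%), with 1125 genes (6.46%) and 0 members at an unadjusted p under 0.05, while DESeq2 called 51 genes and voom 18, none of them members.

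**Figure D2:**
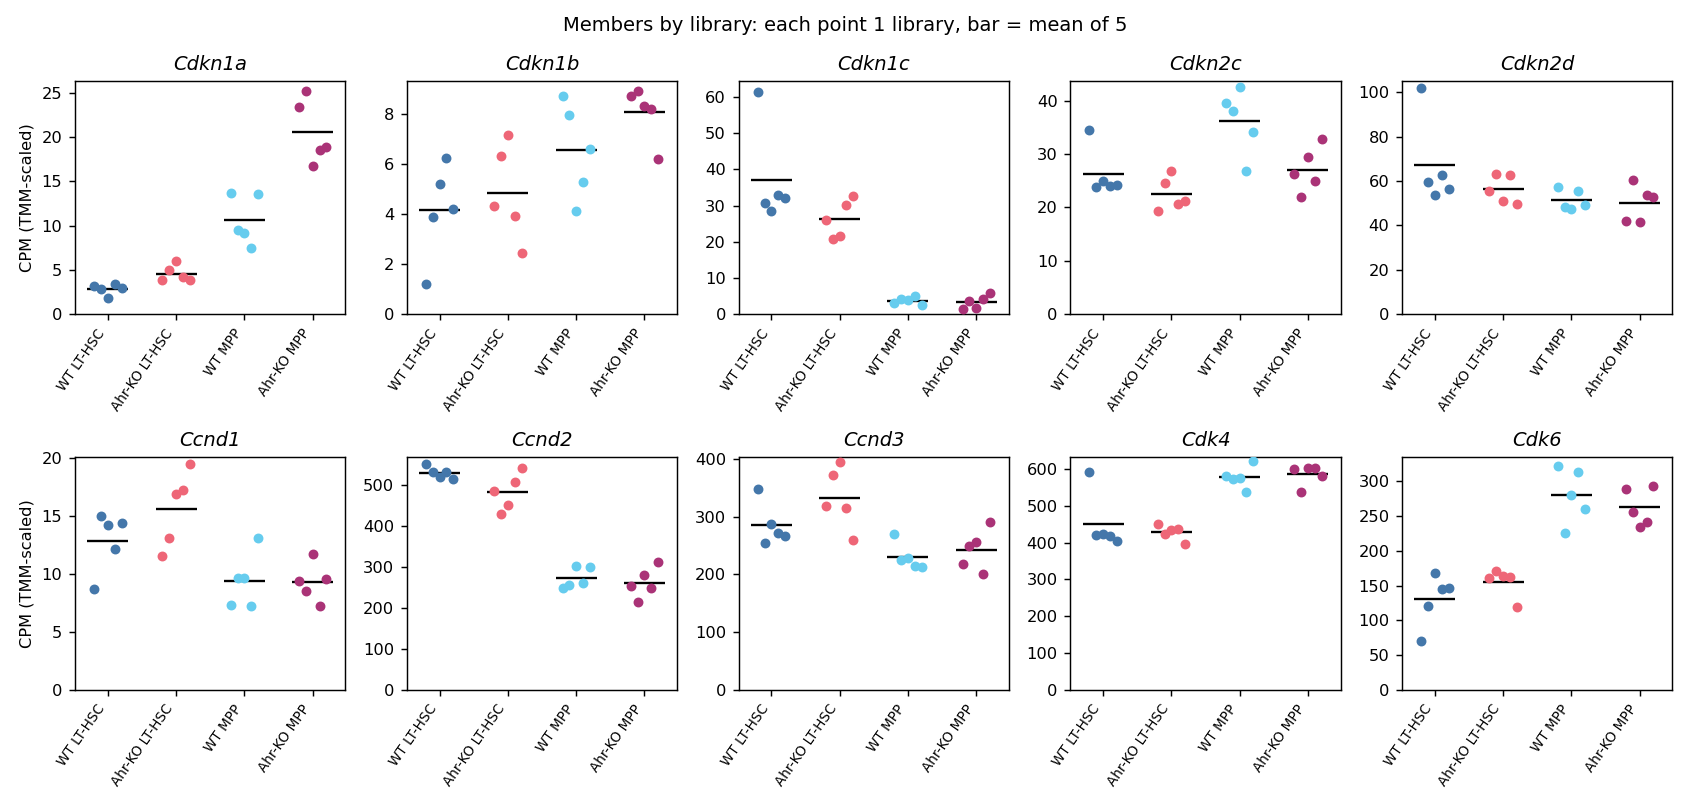
CPM of each member (vertical axis, linear from 0) in every library, with 1 point per library, colours for the 4 groups and a bar at the mean of 5. Cdkn1a climbs from WT LT-HSC (mean 2.85) to Ahr-KO MPP (mean 20.5), while Cdkn1c and Ccnd2 are low in MPP; the high Cdkn1c, Cdkn2c, Cdkn2d and Cdk4 points among WT LT-HSC belong to WT LT-HSC 1.

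Among the Cip/Kip inhibitors, Cdkn1c was higher in LT-HSC and Cdkn1a in MPP. Cdkn1c (chr7:143458339-143461050, minus strand, GRCm38) measured 61.5, 30.8, 28.5, 32.8 and 32.2 CPM in WT LT-HSC 1, 4, 5, 6 and 8 and 25.9, 20.8, 21.6, 30.1 and 32.6 CPM in libraries 1, 2, 3, 4 and 7 of Ahr-KO LT-HSC. In MPP libraries 1 to 5 it measured 2.87, 4.18, 3.94, 4.82 and 2.32 CPM in WT and 1.40, 3.60, 1.58, 4.09 and 5.89 CPM in Ahr-KO. Every LT-HSC library lay above every MPP library. The difference was -3.35 ± 0.34 on the log2 scale in WT (edgeR adjusted p = 9.9e-07) and -2.97 ± 0.34 in Ahr-KO (edgeR adjusted p = 3.3e-06), that is 10.2-fold and 7.84-fold lower in MPP. It was -3.09 in WT without WT LT-HSC 1. In the annotation 30.7% of the exon length of Cdkn1c overlaps another gene, and the counting's strand setting is not given in the sources used here, so a part of these counts could have been assigned either way.

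Cdkn1a (chr17:29090976-29100727, plus strand), which encodes p21 and is the classic target of p53, was lowest in LT-HSC. It measured 3.19, 2.86, 1.83, 3.40 and 2.97 CPM in WT LT-HSC 1, 4, 5, 6 and 8 and 3.86, 4.95, 5.97, 4.16 and 3.82 CPM in libraries 1, 2, 3, 4 and 7 of Ahr-KO LT-HSC. In MPP libraries 1 to 5 it measured 13.7, 9.51, 9.20, 7.41 and 13.6 CPM in WT and 23.4, 25.2, 16.8, 18.6 and 18.9 CPM in Ahr-KO. The 4 groups did not overlap at all, and their order was WT LT-HSC, Ahr-KO LT-HSC, WT MPP, Ahr-KO MPP. MPP exceeded LT-HSC by 1.90 ± 0.21 in WT (3.74-fold, edgeR adjusted p = 2.7e-06) and by 2.17 ± 0.21 in Ahr-KO (4.50-fold, edgeR adjusted p = 4.9e-07).

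Cdkn1b (chr6:134920401-134925513, plus strand), which encodes p27, was scarce everywhere. Its counts ran from 25 to 163 per library, and its range in LT-HSC was 1.19 to 6.26 CPM in WT and 2.42 to 7.18 CPM in Ahr-KO, and in MPP 4.12 to 8.73 and 6.19 to 8.94 CPM. The MPP difference of 0.66 ± 0.34 in WT (edgeR adjusted p = 0.187) and 0.74 ± 0.34 in Ahr-KO (edgeR adjusted p = 0.132) was not called. The WT value was 0.42 without WT LT-HSC 1 (edgeR adjusted p = 0.278). The Ahr-KO difference passed the threshold without WT LT-HSC 1 (0.73, edgeR adjusted p = 0.0374) and without Ahr-KO LT-HSC 2 and 3 (1.15, edgeR adjusted p = 0.0484).

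Set against each other per length, the 3 Cip/Kip inhibitors changed places. Cdkn1c made up 90.6% ± 3.36 (SD, n = 5) of their summed level in WT LT-HSC and 84.0% ± 6.18 in Ahr-KO LT-HSC, but 29.3% ± 10.5 and 17.4% ± 9.14 in the corresponding MPP groups. Cdkn1a made up 4.19% ± 1.03 and 8.65% ± 2.61 in LT-HSC and 47.9% ± 9.10 and 63.0% ± 6.44 in MPP. The lowest Cdkn1a share in an MPP library was 37.2%, and the highest in an LT-HSC library was 12.1%. Divided by the longest transcript instead, Cdkn1c made up 88.7% and 80.4% in WT and Ahr-KO LT-HSC and 23.4% and 12.9% in MPP, and Cdkn1a made up 6.52% and 13.1% in LT-HSC and 59.9% and 73.7% in MPP. The summed level of the 3 genes also differed, at 52.0 ± 12.3 and 38.3 ± 5.25 TPM in the WT and Ahr-KO groups of LT-HSC and 14.3 ± 2.49 and 21.5 ± 3.09 TPM in those of MPP.

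**Figure D3:**
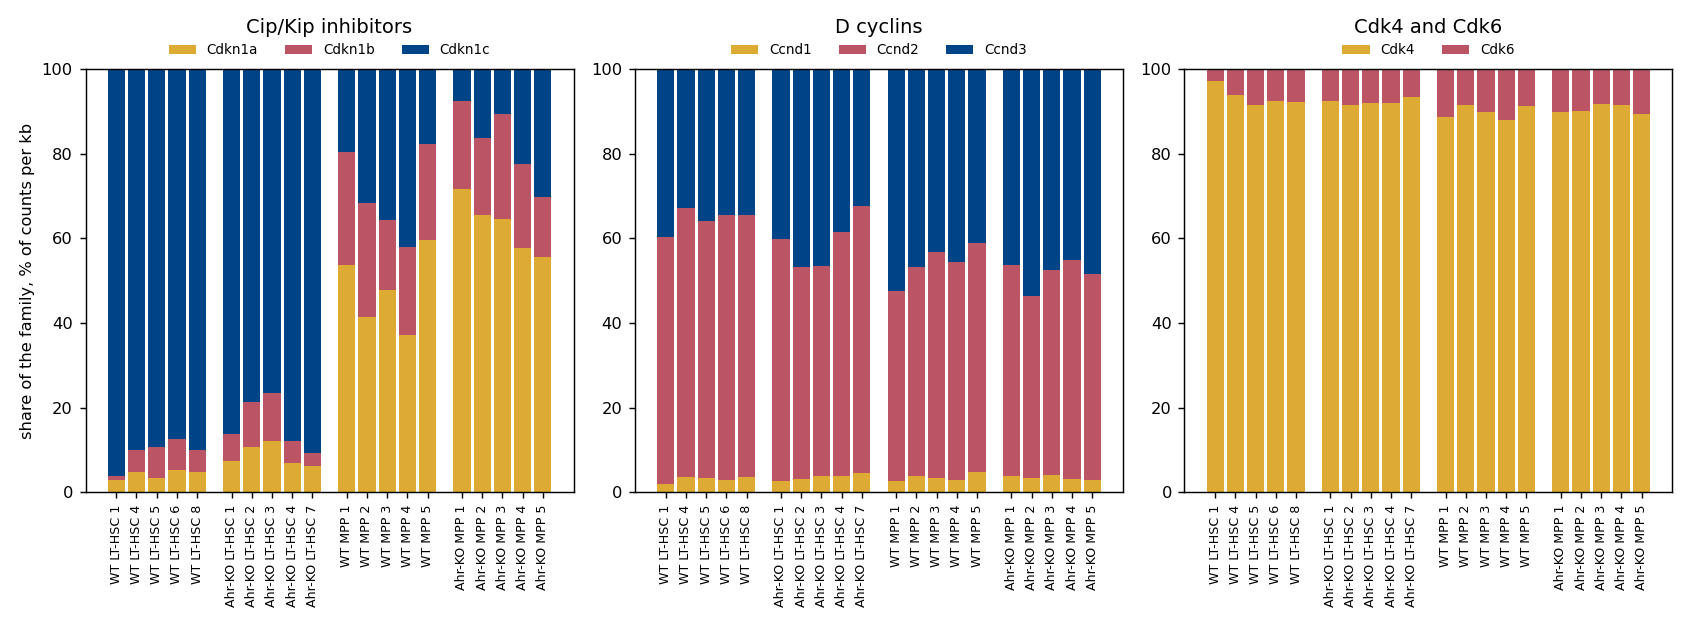
Share of each gene in the summed level per kb of its family, in percent (vertical axis), for each of the 20 libraries (horizontal axis): Cip/Kip inhibitors, D cyclins, and Cdk4 with Cdk6. Cdkn1c fills at least 76.5% of the first panel in every LT-HSC library and at most 42.1% in any MPP library. On average the Ccnd2 share is lower and the Ccnd3 share higher in MPP, although the mean levels of both genes are lower there.

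Of the Ink4 inhibitors, Cdkn2c was called between the populations in WT and Cdkn2d in neither genotype. Cdkn2c (chr4:109660876-109667189, minus strand) averaged 26.2 ± 4.64 (SD, n = 5) CPM in WT LT-HSC and 36.2 ± 6.10 CPM in WT MPP, with ranges of 23.7 to 34.5 and 26.7 to 42.5 CPM that overlapped. The difference of 0.47 ± 0.15 was called (edgeR adjusted p = 0.0286) but not when any 1 of WT LT-HSC 4, 5, 6 and 8 or of WT MPP 1, 2, 3 and 5 was left out (edgeR adjusted p from 0.0502 to 0.0876). It was also lost with no filter on low counts (0.46, edgeR adjusted p = 0.0743) and in the fit of the 10 WT libraries alone (0.44, edgeR adjusted p = 0.0916). Without WT LT-HSC 1, the high library of its group, it was 0.58 (edgeR adjusted p = 0.00347). In Ahr-KO the difference was 0.27 ± 0.15 (edgeR adjusted p = 0.214), and the ranges were 19.2 to 26.7 and 22.0 to 32.7 CPM. Cdkn2d (chr9:21288410-21291407, minus strand), the more abundant Ink4 gene per length in every group, ranged from 49.5 to 102 CPM in LT-HSC and from 41.5 to 60.4 CPM in MPP. Its differences of -0.38 ± 0.15 in WT (edgeR adjusted p = 0.0893) and -0.17 ± 0.15 in Ahr-KO (edgeR adjusted p = 0.482) were not called. The WT value was -0.18 without WT LT-HSC 1 (edgeR adjusted p = 0.256), its high library, and passed the threshold without WT LT-HSC 5 (-0.46, edgeR adjusted p = 0.0478).

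Of the D cyclins, Ccnd2 carried the largest difference between MPP and LT-HSC. Ccnd2 (chr6:127125162-127152193, minus strand) measured 553, 532, 520, 533 and 516 CPM in WT LT-HSC 1, 4, 5, 6 and 8 and 485, 429, 452, 508 and 543 CPM in libraries 1, 2, 3, 4 and 7 of Ahr-KO LT-HSC. In MPP libraries 1 to 5 it measured 248, 255, 302, 260 and 300 CPM in WT and 253, 214, 281, 248 and 313 CPM in Ahr-KO. LT-HSC lay above MPP without overlap, with differences of -0.96 ± 0.09 in WT (1.94-fold lower, edgeR adjusted p = 6.5e-07) and -0.88 ± 0.09 in Ahr-KO (1.85-fold lower, edgeR adjusted p = 1.6e-06). The WT LT-HSC libraries were the tightest of the groups for this gene, with an SD of 14.5 CPM around 531, and WT LT-HSC 1 was only 1.05 times the mean of the others.

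Ccnd3 (chr17:47505051-47599691, plus strand) ranged from 254 to 395 CPM in LT-HSC and from 201 to 291 CPM in MPP. Its difference was -0.31 ± 0.12 in WT (edgeR adjusted p = 0.0716) and -0.45 ± 0.12 in Ahr-KO (edgeR adjusted p = 0.0105). The Ahr-KO call was lost without Ahr-KO LT-HSC 2 and 3 (-0.32, edgeR adjusted p = 0.0956), which at 373 and 395 CPM were the highest libraries for Ccnd3 of all 20. The part of their high marker sums in this value was not tested. In WT the difference passed the threshold without WT MPP 1 (-0.40, edgeR adjusted p = 0.0316), its high library at 271 CPM, without Ahr-KO LT-HSC 7 (-0.33, edgeR adjusted p = 0.0435), without Ahr-KO MPP 5 (-0.33, edgeR adjusted p = 0.0489) and without both Ahr-KO LT-HSC 2 and 3 (-0.33, edgeR adjusted p = 0.0463).

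Ccnd1 (chr7:144929931-144939925, minus strand) was the rare D cyclin, at 8.66 to 19.5 CPM in LT-HSC and 7.23 to 13.1 CPM in MPP. It was lower in Ahr-KO MPP than in Ahr-KO LT-HSC by a difference of -0.75 ± 0.20 (1.68-fold, edgeR adjusted p = 0.00981). In WT the difference was -0.45 ± 0.20 (edgeR adjusted p = 0.115), and it passed the threshold without WT LT-HSC 1 (-0.57, edgeR adjusted p = 0.0302) and without WT MPP 5 (-0.62, edgeR adjusted p = 0.0362). The annotation has 23.4% of its exon length shared with another gene.

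Summed per length, the 3 D cyclins stood at 243 ± 5.99 (SD, n = 5) TPM in WT and 233 ± 5.75 TPM in Ahr-KO for LT-HSC, against 130 ± 8.22 and 135 ± 20.4 TPM for MPP. The lowest LT-HSC library (225 TPM) lay above the highest MPP library (168 TPM). Ccnd2 made up 61.6% ± 2.01 and 55.6% ± 5.61 of that sum in WT and Ahr-KO LT-HSC, and 50.7% ± 3.71 and 48.4% ± 3.37 in WT and Ahr-KO MPP. Ccnd1 made up 1.83% to 4.73% in any library. Divided by the longest transcript, the Ccnd2 share was 52.1% and 46.0% in LT-HSC and 41.0% and 38.7% in MPP, in the same order of genotypes, so that Ccnd3 had the largest share in both MPP groups and in Ahr-KO LT-HSC.

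The kinases were both higher in MPP. Cdk6 (chr5:3341485-3531008, plus strand), the kinase known for setting how readily blood stem cells leave quiescence, measured 69.8, 120, 168, 145 and 147 CPM in WT LT-HSC 1, 4, 5, 6 and 8 and 161, 171, 163, 162 and 119 CPM in libraries 1, 2, 3, 4 and 7 of Ahr-KO LT-HSC. In MPP libraries 1 to 5 it measured 323, 226, 280, 314 and 260 CPM in WT and 289, 256, 235, 241 and 294 CPM in Ahr-KO. The lowest MPP library exceeded the highest LT-HSC library. The difference was 1.11 ± 0.17 in WT (2.16-fold, edgeR adjusted p = 1.0e-04) and 0.76 ± 0.17 in Ahr-KO (1.69-fold, edgeR adjusted p = 0.00295). Without WT LT-HSC 1, the low library, the WT difference was 0.95 (edgeR adjusted p = 1.1e-05).

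Cdk4 (chr10:127063534-127067920, plus strand) ranged from 397 to 452 CPM in LT-HSC other than WT LT-HSC 1, which held 594 CPM, and from 539 to 623 CPM in MPP. Its difference was 0.36 ± 0.09 in WT (1.28-fold, edgeR adjusted p = 0.00701) and 0.45 ± 0.09 in Ahr-KO (1.37-fold, edgeR adjusted p = 0.00108). Without WT LT-HSC 1 the WT difference was 0.47 (edgeR adjusted p = 5.1e-06), and when the fit was restricted to the 10 WT libraries it was 0.33 and no longer called (edgeR adjusted p = 0.0834). Cdk6 made up 6.50% ± 2.29 and 7.73% ± 0.754 (SD, n = 5) of the summed Cdk4 and Cdk6 level per length in WT and Ahr-KO LT-HSC and 10.1% ± 1.55 and 9.45% ± 0.990 in WT and Ahr-KO MPP. In the annotation, 19.7% of the exon length of Cdk4 is shared with Tspan31.

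Beside these differences, the RNA of dividing cells was also more abundant in MPP. The summed level of 15 proliferation genes, among them Top2a and Bub1, ran from 1394 to 2498 CPM in LT-HSC and from 2279 to 4022 CPM in MPP. The 2498 CPM was that of WT LT-HSC 1, and the next highest LT-HSC library held 1856 CPM. Of the 15, 14 were called higher in MPP in WT (background 11.0%) and 11 in Ahr-KO (background 12.5%). The part of proliferation RNA in the members' values was not tested.

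Between genotypes, Cdkn1a was the member with the largest difference, and no member was called by edgeR in either population. In LT-HSC 0 of 10 members were called (background 0.00622%, 1 of 16065 genes; 203 genes without WT LT-HSC 1 and 149 with DESeq2, with 0 members in either), and in MPP 0 of 10 (background 0.0311%, 5 of 16077 genes). At an unadjusted p under 0.05 stood 1 member in LT-HSC, Cdkn1a, where 8.85% of genes did, and 2 in MPP, Cdkn1a and Cdkn2c, where 6.62% did. Groups did not overlap for 1 member in LT-HSC (background 3.64%) and 1 in MPP (background 1.17%), and both times it was Cdkn1a, higher in Ahr-KO (2.23% and 0.610% of genes in that direction).

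**Figure D4:**
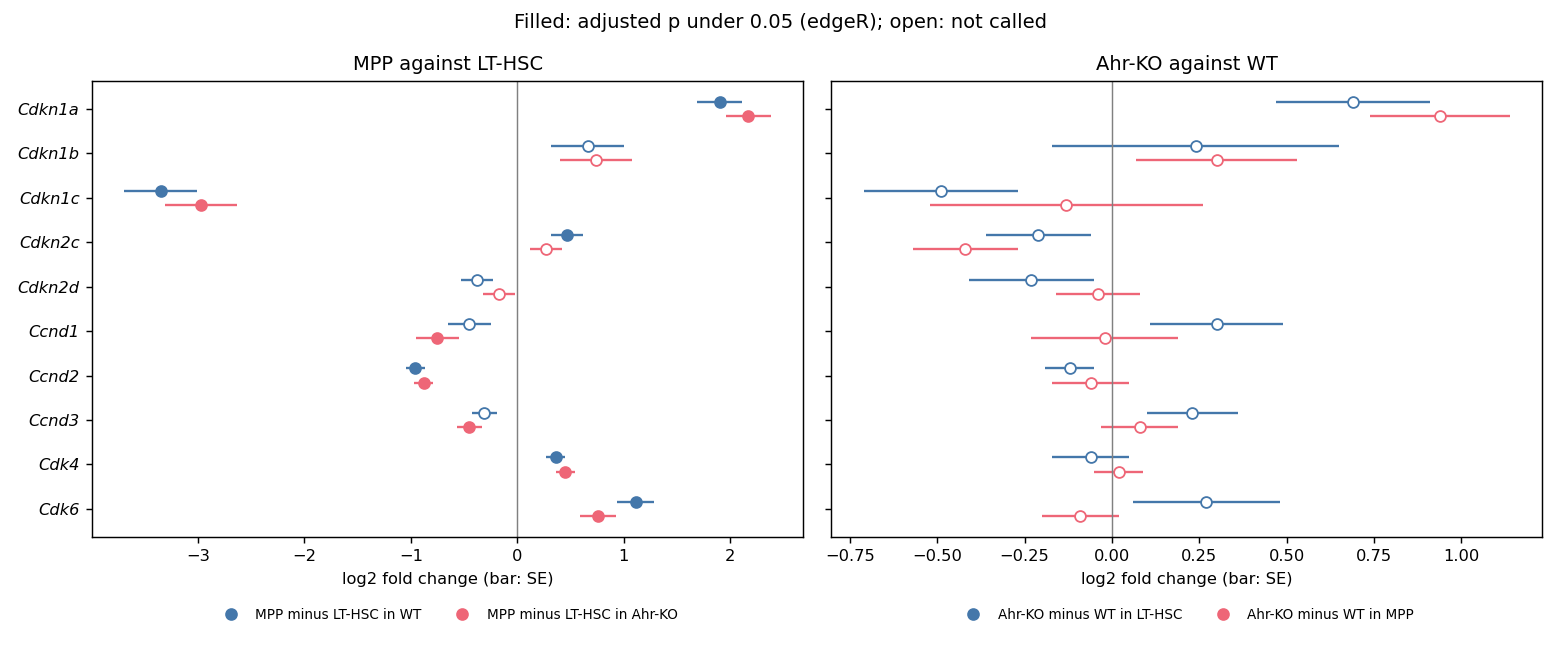
Log2 fold change of each member with its SE (horizontal axis), MPP against LT-HSC in each genotype (left) and Ahr-KO against WT in each population (right). Filled points were called at an adjusted p under 0.05 and open points were not; every point on the right is open, and Cdkn1a lies furthest from 0 there at 0.69 and 0.94.

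Ahr-KO exceeded WT in Cdkn1a by 0.69 ± 0.22 in LT-HSC (1.62-fold, edgeR adjusted p = 0.474) and by 0.94 ± 0.20 in MPP (1.92-fold, edgeR adjusted p = 0.342), in both cases with 5 of 5 Ahr-KO libraries above all 5 WT libraries. DESeq2 called the MPP difference (0.95, DESeq2 adjusted p = 0.00348) and not the LT-HSC difference (0.68, DESeq2 adjusted p = 0.151). The 2 effects differed by 0.27 ± 0.29 (edgeR adjusted p = 0.930), which is within its error. Only 6 of 17416 genes (0.0345%) had Ahr-KO above WT without overlap in both populations.

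Averaged over both populations, a contrast added after these values had been seen, the Cdkn1a difference was 0.81 ± 0.15 (1.75-fold) and was called (edgeR adjusted p = 0.0206), 1 of 26 genes called there (0.149%) and the only member. The call was lost without WT MPP 3 (0.78, edgeR adjusted p = 0.0508) and without Ahr-KO LT-HSC 2 and 3 (0.71, edgeR adjusted p = 0.118). Those last libraries, at 4.95 and 5.97 CPM, held the most Cdkn1a among LT-HSC and also the high marker sums described above, MPP markers among them. The part of those sums in the LT-HSC value was not tested. Without Ahr-KO LT-HSC 2 and 3 the LT-HSC difference was 0.48 (edgeR adjusted p = 0.999). The remaining 3 Ahr-KO LT-HSC libraries held 3.82 to 4.16 CPM, above the highest WT LT-HSC library at 3.40 CPM. Leaving out high Ahr-KO libraries could not have changed that, since the full groups did not overlap. In MPP the neutrophil marker sum overlapped between genotypes, at 392 to 745 CPM in WT and 153 to 824 CPM in Ahr-KO. Other marker sums moved with genotype there: B cell markers had a median of 70.8 CPM in WT (56.6 to 112) and 135 CPM in Ahr-KO (84.8 to 155), and megakaryocyte and platelet markers one of 380 CPM (326 to 424) and 221 CPM (185 to 349). The proliferation genes had a median sum of 3166 CPM in WT MPP (2704 to 4022) and 2561 CPM in Ahr-KO MPP (2279 to 2885). The part of these sums in the Cdkn1a value was not tested.

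Where Cdkn1a transcription starts is shown here because it was the only member whose genotypes did not overlap. RefSeq gives Cdkn1a 2 start sites. The 250 bases upstream of each (GRCm38.p6, plus strand, chr17:29090729-29090978 and chr17:29093519-29093768) were searched on both strands for the AHR core GCGTG, for the E-box CACGTG, for 3 forms of the E2F site (TTTCGCGC, TTTGGCGC and TTTCCCGC) and for a p53 core pair (CATG, any 6 bases, CATG). The E-box and the p53 pair were added after the windows had been seen. The AHR core and the E-box share letters, but neither holds the other. Matches are in capitals:
Cdkn1a start site 1: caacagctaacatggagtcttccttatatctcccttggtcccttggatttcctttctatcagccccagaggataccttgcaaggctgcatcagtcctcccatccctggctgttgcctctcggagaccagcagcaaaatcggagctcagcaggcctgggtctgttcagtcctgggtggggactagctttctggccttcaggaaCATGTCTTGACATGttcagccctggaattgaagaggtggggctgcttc
Cdkn1a start site 2: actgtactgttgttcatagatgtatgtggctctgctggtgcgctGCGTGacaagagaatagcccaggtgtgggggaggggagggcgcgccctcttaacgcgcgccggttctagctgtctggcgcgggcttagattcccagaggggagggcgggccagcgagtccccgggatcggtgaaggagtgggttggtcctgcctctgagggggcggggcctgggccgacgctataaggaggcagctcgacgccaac

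The first window held 1 p53 pair, whose first base lies at -48 from the start site, a match found in 0.49% of 32851 windows of that length. The second held 1 AHR core at -206, found in 28.2% of windows. Such matches describe letters only, and gene counts do not separate the 2 start sites.

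For 7 of the 10 members RefSeq windows were at hand; those of Cdkn1c, Ccnd1 and Ccnd2 were not used here. An AHR core occurred in at least 1 window of 6 of the 7 (Cdkn1a, Cdkn1b, Cdkn2c, Cdkn2d, Ccnd3 and Cdk6). The share of all genes with at least 1 such window was not computed. Counted by window, the AHR core occurred in 6 of their 10 windows, against 28.2% of all windows. The GC content of these 10 ran from 42.8% to 77.2% against a median of 52.4% over all windows. No E2F form occurred in any of the 10; 0.256%, 0.417% and 0.895% of all windows hold the 3 forms in the order given above. Cdk4, the most abundant member, had no AHR core but 4 E-boxes at -172, -118, -98 and -11 (chr10:127063285-127063534, plus strand). Myc can bind these letters, but the letters do not name the factor. At least 1 E-box occurred in 6.02% of windows, and the share with 4 was not read off. The Cdk4 window is shown for these 4 matches:
Cdk4: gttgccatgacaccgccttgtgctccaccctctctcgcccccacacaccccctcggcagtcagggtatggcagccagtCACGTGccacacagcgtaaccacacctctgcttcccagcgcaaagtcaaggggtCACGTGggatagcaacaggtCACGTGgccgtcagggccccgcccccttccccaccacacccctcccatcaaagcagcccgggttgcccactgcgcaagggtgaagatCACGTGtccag

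Myc itself averaged 533 ± 79.1 (SD, n = 5) CPM in WT and 634 ± 51.7 CPM in Ahr-KO for LT-HSC, and 592 ± 94.4 and 757 ± 54.3 CPM for MPP. Its genotype differences of 0.27 ± 0.11 in LT-HSC (edgeR adjusted p = 0.540) and 0.35 ± 0.12 in MPP (edgeR adjusted p = 0.614) were not called. Cdk4 differed between genotypes by -0.06 ± 0.11 in LT-HSC (edgeR adjusted p = 0.920) and 0.02 ± 0.07 in MPP (edgeR adjusted p = 0.976), the smallest genotype differences among the members in LT-HSC and, with Ccnd1, in MPP.

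Neither of the other Cip/Kip genes had a called genotype difference. Cdkn1c differed by -0.49 ± 0.22 in LT-HSC (edgeR adjusted p = 0.563). That value was -0.23 without WT LT-HSC 1 (edgeR adjusted p = 0.370), its high library, and -0.32 without Ahr-KO LT-HSC 2 and 3. In MPP the difference was -0.13 ± 0.39 (edgeR adjusted p = 0.962). Cdkn1b differed by 0.24 ± 0.41 in LT-HSC (edgeR adjusted p = 0.915) and by 0.30 ± 0.23 in MPP (edgeR adjusted p = 0.849). The LT-HSC value became 0.0039 without WT LT-HSC 1 and -0.21 without Ahr-KO LT-HSC 2 and 3.

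Cdkn2c, an Ink4 gene, had the second smallest p of the 10 members in MPP. It measured 39.6, 38.1, 42.5, 26.7 and 34.2 CPM in WT MPP 1 to 5 and 26.2, 22.0, 29.4, 25.0 and 32.7 CPM in Ahr-KO MPP 1 to 5. The ranges overlapped through WT MPP 4 at 26.7 CPM. The difference was -0.42 ± 0.15 (1.34-fold lower in Ahr-KO, edgeR adjusted p = 0.620) in MPP and -0.21 ± 0.15 in LT-HSC (edgeR adjusted p = 0.731), the latter -0.09 without WT LT-HSC 1 and -0.36 without Ahr-KO LT-HSC 2 and 3. The proliferation genes, of which 0 of 15 were called, had sums from 2704 to 4022 CPM for WT and from 2279 to 2885 CPM for Ahr-KO in MPP. Their median difference was -0.32, and 0 of the 15 had a positive difference. The part of these genes in the Cdkn2c value was not tested. Cdkn2d differed by -0.23 ± 0.18 in LT-HSC (edgeR adjusted p = 0.740), a value of -0.03 without WT LT-HSC 1, and by -0.04 ± 0.12 in MPP (edgeR adjusted p = 0.962).

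D cyclins and Cdk6 showed no called genotype difference. In LT-HSC the differences were 0.30 ± 0.19 for Ccnd1, -0.12 ± 0.07 for Ccnd2, 0.23 ± 0.13 for Ccnd3 and 0.27 ± 0.21 for Cdk6, with edgeR adjusted p from 0.632 to 0.742. Without WT LT-HSC 1 they were 0.18 for Ccnd1 and 0.11 for Cdk6, and without Ahr-KO LT-HSC 2 and 3 they were 0.07 for Ccnd3 and -0.05 for Ccnd2. In MPP they were -0.02 ± 0.21, -0.06 ± 0.11, 0.08 ± 0.11 and -0.09 ± 0.11, with edgeR adjusted p from 0.889 to 0.990. All these groups overlapped.

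The wider pathway was read from 53 genes in 8 lists, of which 50 were tested; Cdkn2a, Cdkn2b and Ccna1 stayed under the filter, with highest values of 0.105, 0.561 and 0.713 CPM in any library. Between MPP and LT-HSC, 11 of the 50 were called higher and 3 lower in WT, where 11.0% and 11.3% of all genes were, and 15 higher and 1 lower in Ahr-KO, where 12.5% and 10.7% were. Their median log2 fold change was 0.16 in WT and 0.12 in Ahr-KO, and that of all genes tested was 0.01 in both.

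Genes that act downstream of the D cyclin kinases were among those called. The shares of all genes given above apply to each list here, and small counts in a short list lie near them. Of 8 subunits of the DREAM and MuvB complexes and their partners, which hold cell cycle genes silent or activate them, 3 rose in MPP in WT and 4 in Ahr-KO. Foxm1, the activator of mitotic genes, rose by 1.14 ± 0.20 in WT (edgeR adjusted p = 4.4e-04) and 0.62 ± 0.20 in Ahr-KO (edgeR adjusted p = 0.0325), and Mybl2 by 0.93 ± 0.17 (edgeR adjusted p = 5.5e-04) and 0.74 ± 0.17 (edgeR adjusted p = 0.00355). Of 10 E2F and DP genes 2 rose and 1 fell in WT, and 3 rose in Ahr-KO; E2f8, a repressor of the E2F family, rose by 0.68 ± 0.16 (edgeR adjusted p = 0.00429) and 0.59 ± 0.16 (edgeR adjusted p = 0.0106).

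Of the 5 tested genes of cyclin E, cyclin A and Cdk2, 1 rose in WT and 3 in Ahr-KO, with Ccna2, the S phase cyclin, called in both (0.84 ± 0.13, edgeR adjusted p = 9.7e-05, and 0.41 ± 0.13, edgeR adjusted p = 0.0263). Among the pocket proteins, which the D cyclin kinases phosphorylate, 0 of 3 were called in WT and 1 in Ahr-KO, where Rbl1 (p107) rose by 0.48 ± 0.11 (edgeR adjusted p = 0.00305). None of the 3 genes of the CDK-activating kinase was called in either genotype. Of 10 genes that turn over inhibitors and D cyclins, 2 rose in each genotype, with Cks1b, which helps the ligase that degrades p27, called in both (0.69 ± 0.19, edgeR adjusted p = 0.0110, and 0.72 ± 0.19, edgeR adjusted p = 0.00780).

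Of 10 upstream regulators, 2 rose and 2 fell in WT, and 2 rose and 1 fell in Ahr-KO. Gfi1, a repressor of transcription, rose most, from means of 14.0 and 11.4 CPM in WT and Ahr-KO LT-HSC to 58.6 and 57.8 CPM in MPP (2.07 ± 0.28, edgeR adjusted p = 2.4e-05, and 2.34 ± 0.28, edgeR adjusted p = 6.7e-06). Ezh2, a histone methyltransferase that silences Cdkn2a, rose by 0.82 ± 0.10 (edgeR adjusted p = 5.6e-06) and 0.81 ± 0.10 (edgeR adjusted p = 6.1e-06). Foxo1, a transcription factor that promotes Cip/Kip genes, fell, with values of -0.84 ± 0.17 (edgeR adjusted p = 0.00135) and -0.54 ± 0.17 (edgeR adjusted p = 0.0253). In the Ahr-KO comparisons, 0 of the 50 were called in either population, and the median log2 fold change was -0.07 in each, against 0.00 over all genes tested.

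**Figure D5:**
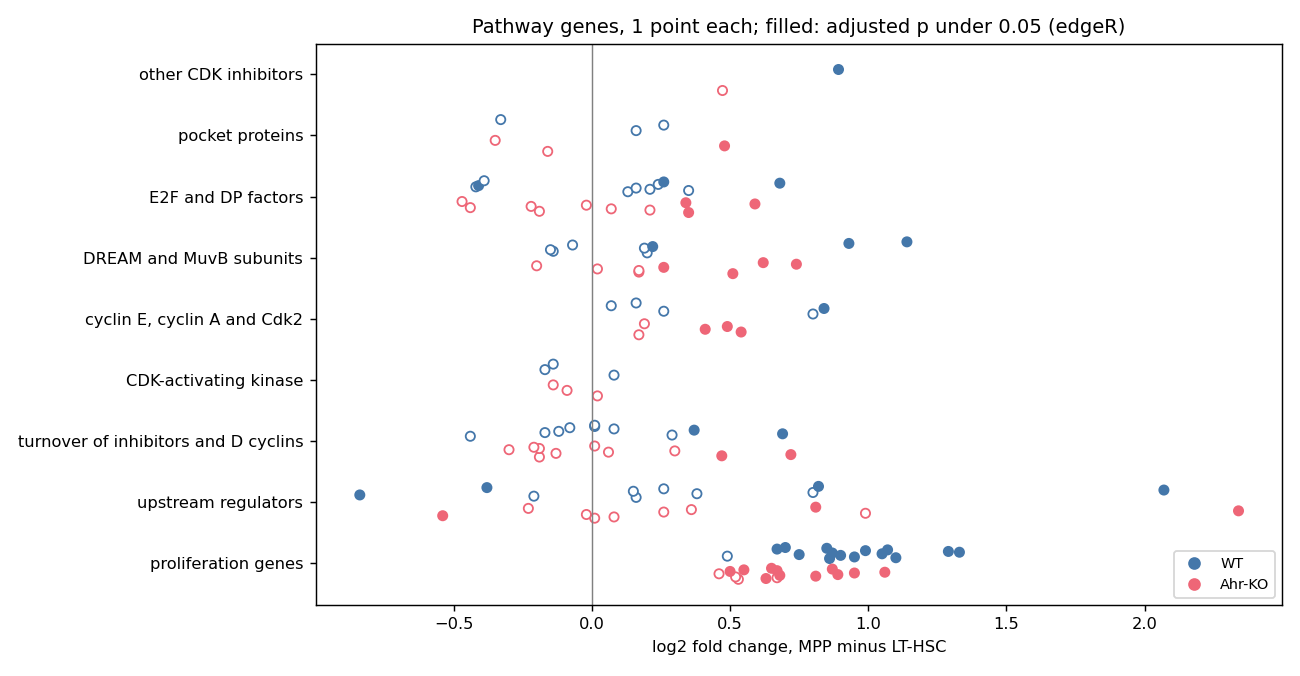
Log2 fold change of MPP against LT-HSC (horizontal axis) for the tested genes of 8 pathway lists and of the proliferation list (rows), 1 point per gene, blue in WT and red in Ahr-KO, filled where called. Gfi1 lies furthest right, at 2.07 and 2.34, and all 15 proliferation genes lie right of 0 in both genotypes.

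Within groups, the members did not vary as 1 block. Deviations of log2 CPM from the group mean were correlated over the 20 libraries as a description, which shares libraries and their composition and rests in part on WT LT-HSC 1. Cdkn2c and Ccnd3 had r = 0.68 (0.60 without that library), and Cdkn2d and Ccnd1 r = -0.69 (-0.57). Cdk4 and Cdk6 had r = -0.65 with and 0.11 without that library, and Cdkn1b and Cdk6 r = 0.71 and 0.34. For each member the 2 most similar of 10613 genes at 5 CPM or more were read off by the same measure. As the highest of so many values they are high in part by selection, and the level reached without any relation was not computed. Those of Cdkn1a were Utp23 (r = 0.76) and Mpnd (0.75), of Cdkn1c Mpzl1 (0.90) and Zfp580 (0.86), of Ccnd2 Sdc2 and Tox (0.76 each), and of Cdkn2c Mcm2 (0.87), a subunit of the replicative helicase, and Ppm1b (0.86). Those of Ccnd3 were Cnn2 (0.88) and Serpine2 (0.84), and those of Ccnd1 Klhl18 (0.78) and Mrpl47 (0.73). Without WT LT-HSC 1 these values moved by 0.05 at most, while those of Cdk4 with Clpp went from 0.95 to 0.76, of Cdk6 with Qser1 from 0.91 to 0.81, of Cdkn1b with Il10ra from 0.91 to 0.79 and of Cdkn2d with Calcoco1 from 0.90 to 0.77.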

How the data were processed

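The authors deposited raw counts per gene symbol for each of the 2 populations, and both tables hold 49568 symbols with 1 column per library. Per the submitters' processing notes, the tools were STAR 2.5.2b, Trimmomatic 0.36, featureCounts, Subread 1.5.0p3 and DESeq2 1.12.4, and the build GRCm38.p5; for annotation, settings and strand the entry is: not given in the sources used here. Per the labels' protocols, the kit was TruSeq V2 with poly(A) selection. That text also mentions DC samples, which are not part of these data. Library totals of 13712668 to 21622653 counts set the counting error, which is the lower bound of the error, since there are no molecular identifiers. The tables were joined, and edgeR 4.0.16 (R 4.3.3; filterByExpr, TMM, robust dispersions, quasi-likelihood F test, two-sided, Benjamini-Hochberg over all genes) was fitted to the 10 libraries of a population for genotype and to all 20 libraries for population and interaction. Standard errors were taken from the size of the log2 fold change over the root of F. Alternatives used DESeq2 1.42.0 and voom in limma 3.58.1, other filters and scalings, other sets of libraries and a replicate block. The fit was also run on simulated counts that held no library like WT LT-HSC 1, and no result here rests on that run. Lengths and coordinates came from GENCODE M21, in which 47181 symbols were found once, and upstream sequences from RefSeq. In the named lists, up to 3 called genes with the smallest p, or else the gene with the smallest p, were eligible for naming. The members and lists were chosen with earlier results of these data known.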

Additional observations from a re-analysis of the deposited data

Results flagged for a closer look

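Over 40 sets of 5 libraries, 10 members in 4 groups, 7 held a library far from the rest by Dixon's test at the 95% level; chance gives about 1 in 20. Of the 7, 4 were high values in WT LT-HSC 1, where Cdkn1c stood at 61.5 CPM against 28.5 to 32.8 in the other 4 libraries, Cdkn2c at 34.5 CPM against 23.7 to 24.9, Cdkn2d at 102 CPM against 53.8 to 62.7, and Cdk4 at 594 CPM against 404 to 425. These 4 genes have 1574 to 3249 bp of merged exons, and short genes were high in this library as a whole. Its summed level of the proliferation genes was also high, at 2498 CPM against 1409 to 1700 CPM in the other 4 libraries. The part of either in the members' values was not tested. Ccnd3 was high in WT MPP 1, at 271 CPM against 213 to 228. Cdk6 was low in Ahr-KO LT-HSC 7, at 119 CPM against 161 to 171, and Cdkn1b was low in Ahr-KO MPP 5, at 6.19 CPM against 8.19 to 8.94.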

How the results depend on the processing

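Of 1447 alternative values for the members, 1389 kept their direction and their side of the threshold, 15 newly passed it, 18 no longer did and 25 reversed; none of the reversed values was called in the main analysis. With voom, Cdk4 became 0.07 for Ahr-KO in LT-HSC and 0.04 averaged over both populations, and the interaction became -0.10 for Cdkn1c and -0.02 for Cdk4. Without Ahr-KO LT-HSC 2 and 3, Cdkn1b became -0.21 in LT-HSC, and the interaction became -0.02 for Ccnd2 and 0.01 for Ccnd3. Leaving out 1 library at a time, reversals occurred for Ahr-KO in MPP in Ccnd1 (-0.12 to 0.14), Cdk4 (-0.0033 to 0.05), Cdkn1c (-0.44 to 0.06) and Cdkn2d (-0.12 to 0.02), for Ahr-KO in LT-HSC in Cdk4 (-0.10 to 0.06; 0.06 without WT LT-HSC 1), for the average in Cdk4 (-0.04 to 0.03), and for the interaction in Ccnd2 (-0.02 to 0.13), Cdk4 (-0.02 to 0.12) and Cdkn1b (-0.14 to 0.31). The causes were not tested.

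The number of genes called for Ahr-KO in LT-HSC was 1, against 3 with DESeq2 size factors, 4 with no filter, 3 with at least 5 CPM in at least 5 libraries, 149 with DESeq2, 305 with voom and 14 in the fit of all libraries, and 0 to 203 without 1 library, with 203 without WT LT-HSC 1. In MPP it was 5, against 3 with DESeq2 size factors, 50 with DESeq2 (1 member, Cdkn1a) and 8 with voom, and 0 to 4 without 1 library. Averaged, it was 26, against 120 with DESeq2, 114 with voom and 10 with 0 members without Ahr-KO LT-HSC 2 and 3; without 1 library it was 18 to 59 with 0 to 1 members. The interaction gave 51 with DESeq2 and 18 with voom, and 0 without any 1 library. MPP against LT-HSC gave 3876 in WT, 6493 with voom and 3190 to 5323 without 1 library, with 5 to 7 members, and 4041 in Ahr-KO, 3204 to 5724 without 1 library, with 7 to 8 members.

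The labels number the libraries within each genotype, so a number can mark a shared animal only between LT-HSC and MPP of 1 genotype. Same-numbered libraries there deviated together with correlations from -0.16 to 0.10 in WT, where 1 of 3 matched best with its own number. In Ahr-KO all 4 correlations were from 0.00 to 0.27, and 2 of 4 libraries matched best with their own number. Over all 6 pairs of groups, those across genotypes included, the range was -0.32 to 0.27. The numbers were not taken to pair the libraries. The labels do not say whether a number marks an animal. The replicate block gave each number 1 term whatever the genotype, and a pairing within genotype was not fitted. For Ahr-KO in LT-HSC only libraries numbered 1 and 4 could enter, WT LT-HSC 1 among them. That fit called 0 genes, with 85 at an edgeR unadjusted p under 0.05 against 1422 in the main fit, so the 0 is not comparable. With the block the genes called were 0 for Ahr-KO in MPP, 2 with 0 members for the average, 1905 for MPP against LT-HSC in WT and 2457 in Ahr-KO. Called in both were 3 members (Cdkn1a, Cdkn1c and Ccnd2). Calls were lost for Cdk4 (0.30, edgeR adjusted p = 0.111) and Cdkn2c (0.32, edgeR adjusted p = 0.294) in WT and Cdk6 (0.62, edgeR adjusted p = 0.051) in Ahr-KO. The interaction of Cdkn1b became -0.35 and Cdkn1a averaged 0.89 (edgeR adjusted p = 0.342). Depth limits Cdkn1b, at 25 to 163 counts per library, and Cdkn1c in MPP, at 20 to 120.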
